A study of Danio rerio with 20 samples.

Results

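The genes described here are a set of cytoskeleton genes, of any cell type, listed in the deposited table of ageing wild-type (WT) zebrafish brains. They cover tubulins, intermediate filaments, microtubule-associated proteins, microtubule motors, actins with their regulators, myosins and the membrane skeleton. The choice was made by a fixed list of gene symbol stems, such as tuba, nef, krt, dync, klc and myo. In the table, 45 of 2885 distinct gene identifiers fit. Cytoskeleton genes under other symbols, kinesin motors among them, were not looked for, so the roles are not whole families. RNA of whole brains from male fish of the AB background was sequenced after poly(A) selection, and labels exist for 20 libraries in 7 groups, WT at 4 ages and telomerase-deficient tert-/- at 3. The table belongs to WT fish of over 30 months (3 labelled libraries) set against WT fish of 2 months (2 labelled libraries), with no mutant tert allele and no treatment in either group. The study states 3 per group, so the number of young fish behind the comparison is not settled here. The table keeps genes at an adjusted p under 0.05 in that comparison. The comparison's own fold changes and p-values are not used here, so no direction with age is given for any gene. What remains is the gene's position and its mean normalized count, which is the number of reads on the gene, divided by a size factor of each library and averaged over the libraries of the fit. Old and young fish enter that mean together. By the study's methods, WT samples were analysed separately, with fish of 2 months as the baseline for 9, 22 and over 30 months. Whether the WT libraries of 9 and 22 months enter the mean is not stated outright. Neither a value per fish nor a library's total count is given. No spread between fish could therefore be computed.

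The cytoskeleton gives neurons and glia their shape. Microtubules are tubes of α- and β-tubulin that run along axons and dendrites, are steadied by associated proteins and serve as tracks for motors such as dynein. Neurofilaments are the intermediate filaments of neurons and set the calibre of axons, while glia and epithelia use other intermediate filament proteins. Actin filaments lie under the membrane, at synapses and in growth cones, where myosins pull on them and spectrin with ankyrin ties them to membrane proteins.

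The cytoskeleton genes lay high in the range of counts of the table. Their median mean normalized count was 704, against 188 for all listed genes, and their range was 16.2 to 9896, within 3.75 to 78061 over all listed genes. A mean of at least 1000 was found for 21 of the 45 genes (46.7%), compared with 439 of all listed genes (15.2%). A mean under 200 was found for 8 of them (17.8%), compared with 1486 of all listed genes (51.5%). Of the 45 genes only LOC100150882 had a mean under 50, against 697 of all listed genes. Reads scale with transcript length, and transcript lengths were not used here, so that counts of different genes are given side by side and are no order of RNA levels.

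**Figure D1:**
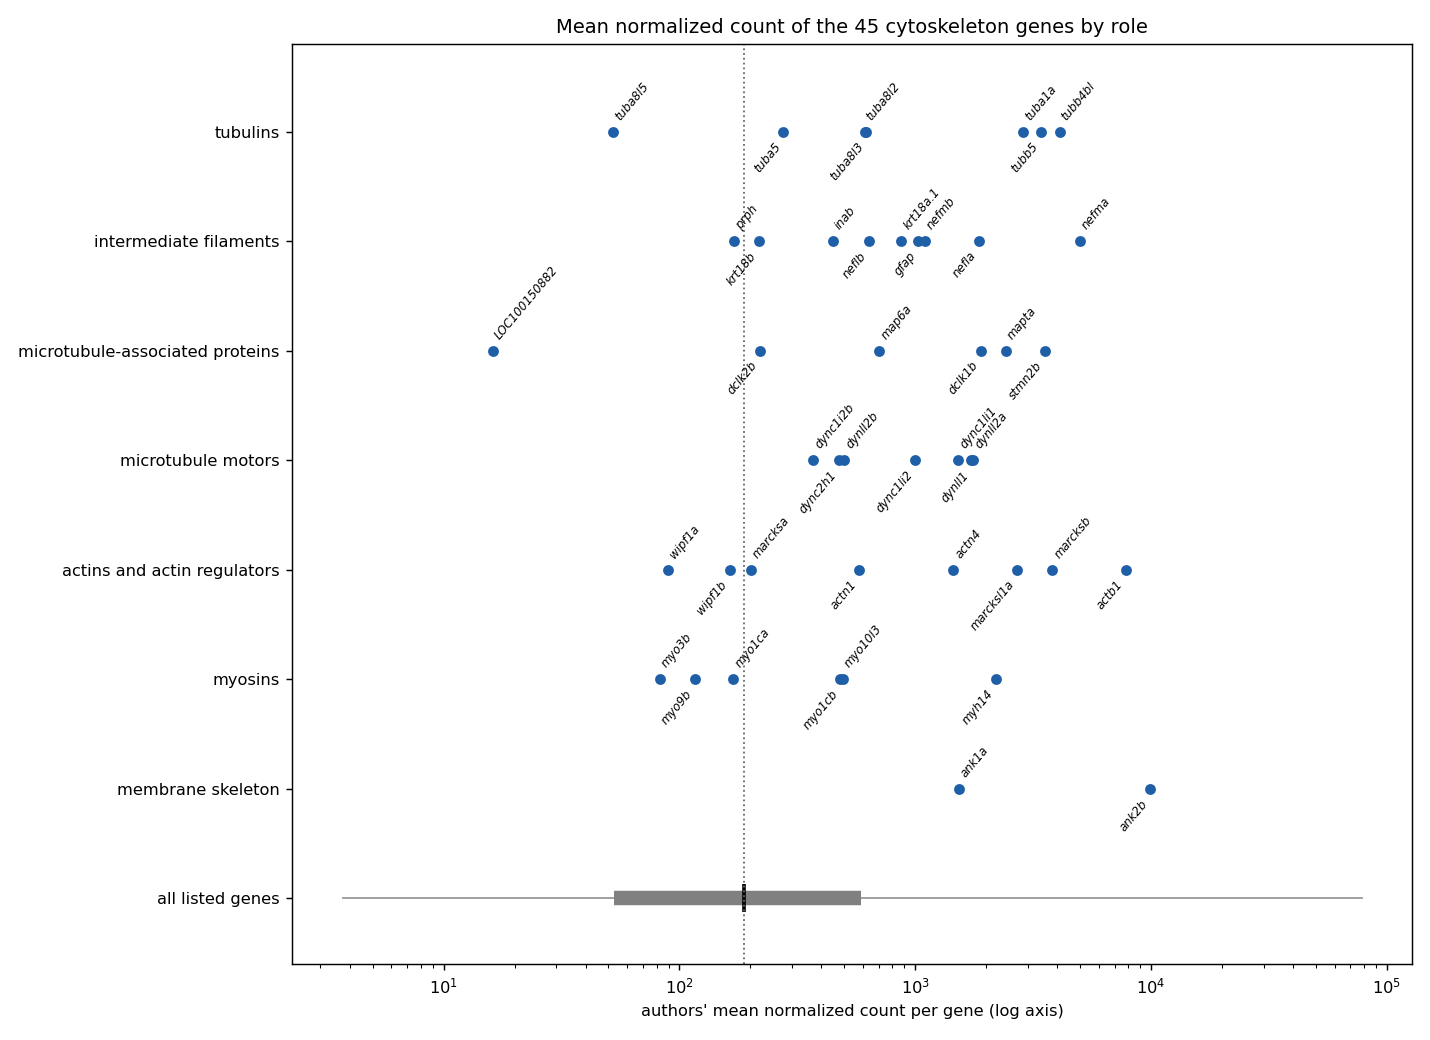
Mean normalized count of each of the 45 cytoskeleton genes (points, log axis), 1 row per role, above all 2885 listed genes (thin line, range; thick bar, middle 50%; tick and dotted line, median of 188). In every row but the myosins most points lie to the right of the dotted line, and LOC100150882, at 16.2, is the point farthest to the left.

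Families differed in how much of them the table lists. Of the gene identifiers that carry a name in the reference, 9.51% are in the table. Of those whose name fits the cytoskeleton rule, 47 of 254 (18.5%) are, which includes a pair of identifiers that only the reference names as cytoskeletal. The named identifiers were not all tested, and the number tested in each family is not given. Each role counts only the symbols of the rule. Intermediate filaments had the largest listed share of the 7 roles, with 11 of 32 (34.4%), of which 9 are among the 45 genes. Microtubule motors followed with 7 of 23 (30.4%). Only dynein subunits named dync or dynl and kinesin light chains were counted there, not the kinesin motors. Tubulins had 7 of 26 (26.9%). Actins and actin regulators had 8 of 37 (21.6%). Microtubule-associated proteins had 6 of 41 (14.6%) and the membrane skeleton 2 of 14 (14.3%). Myosins, with 6 of 71 (8.45%), were near the share of all named genes. Another 10 names that fit the rule belong to other kinds of protein by their symbol, such as the map4k kinases, and none of these is listed. The smaller families named below stand beside the same 9.51%. Where few or none of their genes are listed, nothing is read from it. A gene that is not listed missed the threshold, was not tested or was left out for another reason, which cannot be told apart here. Counts of the listed cytoskeleton genes were above those of most listed genes, and the part that read depth plays in these shares was not tested.

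**Figure D2:**
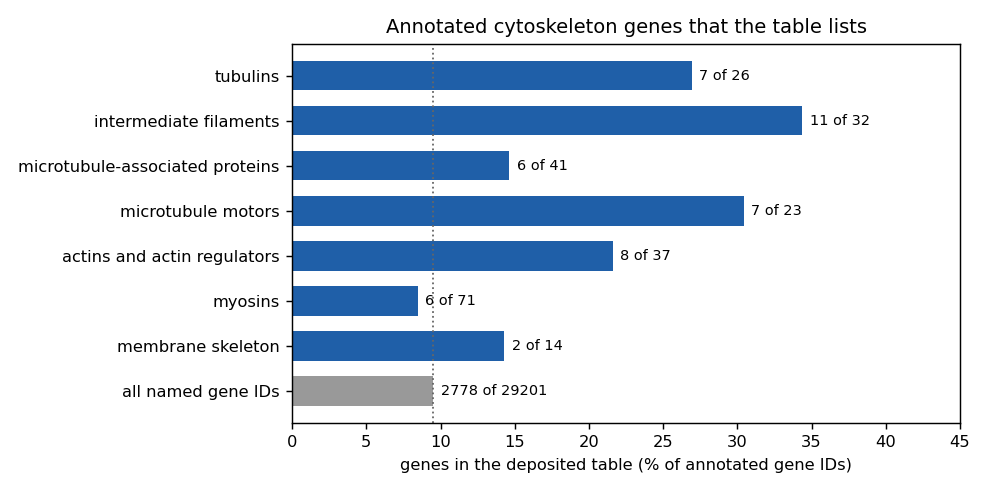
Share of annotated gene identifiers that the deposited table lists, in percent, for the 7 roles (blue bars) and for all 29201 named identifiers (grey bar, dotted line at 9.51%). Each role holds only the symbols of the rule, so that microtubule motors are dynein subunits and kinesin light chains. The bars run from 34.4% for intermediate filaments to 8.45% for myosins, the single role below the dotted line.

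Tubulins build the microtubule wall. Of 11 annotated α-tubulin genes 5 are listed, and of 7 β-tubulin genes 2, while none of the 5 genes named for γ-tubulin and its nucleating complex is. The β-tubulin genes tubb4bl and tubb5 had mean normalized counts of 4095 and 3422, and the α-tubulin gene tuba1a had 2873. These 3 stood apart from the other tubulins, all of which had a mean under 1000. The closely related α-tubulins tuba8l3 and tuba8l2 had means of 620 and 610, and tuba5 had 276. The lowest tubulin mean was that of tuba8l5, at 52.3. On GRCz11, tuba8l3 (chromosome 9, from 7662638 to 7673856) and tuba8l5 (from 7678136 to 7684002) are 4279 bp apart, and no other protein-coding gene separates them in the RefSeq annotation of GRCz12tu. Tubulin genes resemble each other closely in sequence, so that reads may be shared between them, and this was not tested.

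Intermediate filament genes with a neurofilament-like or internexin symbol were nearly all listed. Of 8 identifiers whose reference symbol starts with nef or is INA, 7 are in the table, neff1 and neff2 among them. The one that is not is the second internexin gene, the counterpart of inab. The medium neurofilament genes nefma and nefmb had mean normalized counts of 4989 and 1095. The light neurofilament genes nefla and neflb, whose protein forms the filament core, had 1859 and 634. Internexin alpha, which co-assembles with neurofilaments in the central nervous system, is represented by inab at 447, and peripherin, known in mammals mainly from peripheral and brainstem neurons, by prph at 170. The neurofilament genes form 2 neighbouring pairs. On chromosome 21 of GRCz11, nefla (from 19008168 to 19011040) and nefma (from 19013850 to 19018455) are separated by 2809 bp. Chromosome 8 holds nefmb (from 6863462 to 6866890) and neflb (from 6873853 to 6877390), with 6962 bp between them. Neither pair has another listed gene between its members, nor a protein-coding gene in the RefSeq annotation. The copies on chromosome 21 had the larger mean of both genes, at 2.93 times that of chromosome 8 for the light and 4.56 times for the medium neurofilament, without correction for transcript length. The pair of identifiers outside the symbol rule are neff1 and neff2, listed under clone-based names, with means of 1767 and 20860. The second of these exceeds every one of the 45 genes.

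Outside neurons, gfap, the filament of radial glia, had a mean normalized count of 1031. Both vimentin identifiers of the reference are absent from the table. Keratins are known mainly from epithelia, and of 20 annotated keratin genes 2 are listed, a share near the 9.51% of all named identifiers. They are krt18a.1 at 873 and krt18b at 217, both named after keratin 18 of simple epithelia. Which cells of the brain held their RNA was not tested. None of the 9 markers of skin epithelium, krt4 and krt5 among them, is in the table, and with so short a list and that background share nothing is read from their absence.

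Among the proteins that bind microtubules, stmn2b had the highest mean normalized count, 3545. It encodes a stathmin, which binds free tubulin dimers and is known from growing axons. mapta, the tau gene, had 2421, and the doublecortin-like kinase gene dclk1b had 1903. map6a, named after a protein that stabilises microtubules against cold, had 704, and dclk2b had 219. LOC100150882, at 16.2, is named tppp in the reference, after a protein that promotes tubulin polymerisation and is known in mammals from oligodendrocytes. It spans 974 bp and was the most thinly measured of the 45 genes, with only 8.49% of all listed genes below it. Of 8 annotated stathmin genes 1 is listed, and of 7 genes of the map1, map2 and map4 families none. With so few genes, these counts are not set apart from the 9.51% of all named identifiers.

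Dynein carries cargo towards the minus end of microtubules. The light chain genes dynll2a, dynll1 and dynll2b had mean normalized counts of 1756, 1728 and 499. The light intermediate chains, which join the motor to its adaptors, are represented by dync1li1 at 1522 and dync1li2 at 1002, and the intermediate chain by dync1i2b at 368. The intermediate and light intermediate chains are parts of cytoplasmic dynein 1, whereas LC8 light chains of the dynll kind also bind many other proteins. dync2h1, the heavy chain of the dynein that works inside cilia, had 477 and spans 238 kb. No motor gene had a mean under 200, and none of the 3 kinesin light chain genes is listed.

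The actin group held the β-actin gene actb1, often used as a reference gene for expression, with a mean normalized count of 7795. The other 8 of the 9 annotated actin genes, actb2 among them, are not listed. Of 4 marcks genes, whose proteins bind actin and the membrane and are targets of protein kinase C, 3 are listed, marcksb at 3813, marcksl1a at 2709 and marcksa at 201. The α-actinins, which cross-link actin filaments, are represented by the non-muscle genes actn4 at 1452 and actn1 at 577. wipf1b and wipf1a, which encode partners of the actin nucleation promoter WASP, had 163 and 89.3. Cofilins, with 3 annotated genes, tropomyosins, with 5, and gap43, a protein of growth cones, are not listed.

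Myosins had the lowest median of the 7 roles, 325, and 3 of the 6 had a mean under 200. myh14, a heavy chain of non-muscle myosin II, had 2204 and was the single listed gene of 20 named myh. The remaining listed myosins are unconventional, 5 of 36 annotated, with means of 492 for myo10l3, named after the filopodial myosin X, and 481 and 169 for myo1cb and myo1ca, which tie actin to membranes. myo9b had 116 and myo3b had 82.6. No myosin light chain gene of 15 annotated is listed. Of 21 skeletal muscle markers, pvalb1 and pvalb2, both parvalbumins, are in the table with means of 18.2 and 22.2. That share is near the 9.51% of all named identifiers. Nothing is read from the absence of the myosin, actin and actinin markers of muscle. Ankyrins anchor membrane proteins to spectrin, and ank2b had the highest mean of all 45 genes, 9896, with ank1a at 1535. None of the 8 spectrin genes is listed, and 4 of the 6 ankyrin genes are not either. Beside the 9.51% of all named identifiers, nothing is read from the absence of so few genes.

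Many zebrafish genes exist in a and b copies left by a genome duplication in the ancestor of teleost fish. Such genes were counted by an a or b at the end of the symbol, leaving out tuba1a, myo3b and myo9b. Copies under other names were not looked for. Of 16 genes so counted with at least 1 listed copy, 6 have both copies in the table, namely nefl, nefm, dynll2, marcks, myo1c and wipf1. The same count was not made over all listed genes, so 6 of 16 is called neither many nor few. The keratin 18 genes krt18a.1 and krt18b were not counted as such a pair, since copy a is itself split into krt18a.1 and krt18a.2 in the reference. For the other 10, among them mapta, stmn2b, map6a and ank2b, the second copy is annotated in RefSeq and not listed. The means of 2 listed copies differed least for wipf1, by 1.83 times, and most for marcks, where marcksb had 18.9 times the mean of marcksa. Copy a had the larger mean for nefl, nefm and dynll2, and copy b for marcks, myo1c and wipf1, so that neither copy was the larger one throughout.

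**Figure D3:**
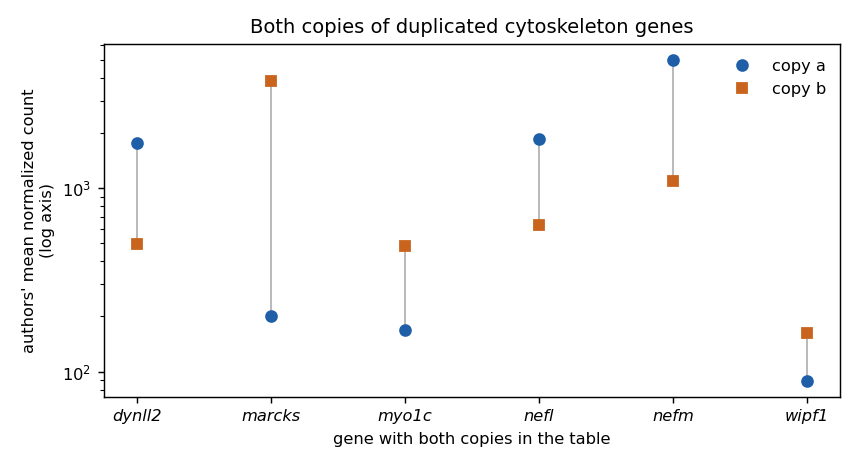
Mean normalized count (log axis) of copy a (circles) and copy b (squares) for the 6 cytoskeleton genes with both copies in the table. The gap is widest for marcks, at 201 for copy a and 3813 for copy b.

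The 45 genes are spread over 20 of the 25 chromosomes in the table, with at most 5 on one, chromosomes 9 and 15. Their median distance to the nearer chromosome end was 10.5 Mb, against 13.7 Mb for all listed genes. Within 5 Mb of an end lie 11 of them (24.4%), against 604 of all listed genes (20.9%), so that the 2 shares are close. The gene nearest to an end is dclk2b, at 601260 bp on chromosome 23. Gene span reached from 0.974 kb for LOC100150882 to 245 kb for ank2b, with a median of 12.04 kb against 17.2 kb for all listed genes. By role, the median span was shortest for intermediate filaments, at 3.90 kb, and among the roles with more than 2 genes longest for myosins, at 90.6 kb.

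Marker lists of cell types were looked up among the listed genes. Being listed means passing the threshold for a difference between old and young fish, so the lookup does not check the tissue. The counts stand beside the 9.51% of all named identifiers that are listed. All 7 oligodendrocyte markers are listed, with means from 328 for sox10 to 78061 for the myelin gene mbpa, the highest of the whole table. The neuronal marker snap25a had 37420 and is the single one of 13 that is listed, which is near that share, and of 7 glial markers fabp7a, at 5499, and gfap are. Markers of smooth muscle and mural cells are not listed, and 3 of 6 red blood cell markers are, with means from 34.5 to 1014. Since the table holds only genes that passed its threshold, a marker that is not listed may still be expressed. In whole brains, the number of cells of a type and the RNA per cell both enter a gene's count and cannot be told apart.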

How the data were processed

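Poly(A) RNA of whole brains was sequenced. The submitters' processing notes name cutadapt 3.0, MultiQC 1.9, STAR, HTSeq and GRCz11, whereas the methods of the study name featureCounts for counting and the authors used DESeq2 for the comparison. Per gene, the authors deposited a signal, counts normalised by size factors and averaged over libraries that are not named. The depth of each library is not given, while the study states a minimum of uniquely mapped reads for all samples and an average coverage. Of 3 sheets, those split by direction were not used, nor were the 5 columns of log2 fold change, standard error, Wald statistic, p and adjusted p, since they hold the authors' own comparison. Identifiers repeated in the 2887 entries were counted once, which left 2885. The deposited distance to the chromosome end equalled that from gene start, gene end and chromosome length for all of them.

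Members were matched by symbol and assigned to 7 roles. Annotated families were counted among 29201 named gene identifiers, by Ensembl identifier, and 2778 listed identifiers have a name there. RefSeq symbols of GRCz12tu, found for 44 of the 45 genes and not for dclk2b, were used for gene copies and neighbours within 50 kb. Named genes are, per role, the 3 highest and 2 lowest means, all intermediate filaments and all pairs of copies; others, namely actn1, actn4, tuba8l2, tuba8l3, dync1li2 and map6a, were named after their values were seen, so that every member is accounted for. Members and lists were chosen with earlier results of these data known. No test was run. Alternatives were a minimum mean of 50, table entries, leaving out muscle, skin and non-cytoskeletal names, and limits of 50 and 1000 in place of 200. Python 3.11.15, numpy 2.4.6, pandas 2.3.3, scipy 1.17.1 and matplotlib 3.10.9 were used.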

Additional observations from a re-analysis of the deposited data

How the results depend on the processing

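The number of cytoskeleton genes was 44 at a minimum mean normalized count of 50. It stayed at 45 when table entries were counted and when names outside the cytoskeleton were left out. Those settings could not change it, since no member is a repeated identifier or such a name. Their median mean was 704 without muscle and skin markers or names outside the cytoskeleton, none of which is a member, and 789 at the minimum of 50. The share under a mean of 200, 17.8%, became 2.22% with a limit of 50 and 53.3% with a limit of 1000, as these limits ask for other genes. Means per coding length, and the order by gene span that was to be set beside them, were not run, since no coding lengths were at hand. No replicate could be left out, and the spread between fish is unknown, because the table gives 1 mean per gene. No paired analysis was possible because no column belongs to a sample and no test was run.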
